A study of Mus musculus with 6 samples.

Results

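The cytosolic ribosomal protein genes were taken as the protein-coding genes whose symbol is *Rpl* or *Rps* followed by a number, with at most 1 letter and 1 further digit after it, together with *Rpsa* and the stalk genes *Rplp0*, *Rplp1* and *Rplp2*. This rule named 82 of the 12436 genes listed, of which 50 belong to the large (60S) subunit and 32 to the small (40S) subunit by their symbols. All 82 were detected in every library. The measurements come from single-cell RNA sequencing of mouse tibialis anterior muscle (TAM), the main muscle of the front of the shin, and values are counts of unique molecular identifiers (UMIs, 1 per captured mRNA molecule) summed over cells and scaled to the library's total (CPM, the UMIs of a gene in every 1000000).

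All 6 groups came from male B6;129 mice with the allele Gt(ROSA)26Sor<tm1(Fucci2aR)Jkn, a cell cycle reporter carried by controls and hypothyroid animals alike, aged 3 to 5 months when the diets began. By the study's methods the line was crossed with *Pax7*-Cre mice, and offspring without Cre served for the transcriptomic experiments. Control mice ate a control diet. Hypothyroid mice ate a low-iodine diet with 0.15% propylthiouracil (PTU), which blocks thyroid hormone synthesis, and the TAM was examined uninjured (day 0) or at 5 or 14 days post injury (dpi) by cardiotoxin, a snake venom toxin that destroys myofibers and so starts regeneration. Each diet and day is 1 library from 3 pooled mice, so no difference below has a replicate check and none was tested, and since the batch label is the day itself, day and batch cannot be told apart.

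The ribosome is built from RNA and one copy of most of these proteins, so their mRNAs are among the most abundant in any cell. Their translation is switched together by the mTOR pathway through a run of C and T bases at the very start of the mRNA, the 5′ terminal oligopyrimidine (TOP) motif. Ribosome supply is a known limit on growth in skeletal muscle, where 1 member, *Rpl3l*, largely replaces its near twin *Rpl3* in mature fibers.

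The first bases of the transcripts are shown for members on which the results below turn, because the TOP motif sits there. RefSeq held 74 windows around a transcript start for 62 members, on GRCm38.p6, and 20 members had none. Each line gives 10 bases before and 20 bases from the annotated start, and the capitals mark the unbroken run of C or T from that start, where there is one.

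*Rpl35* (chr2:39005112-39005141, minus strand): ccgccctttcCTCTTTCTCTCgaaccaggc
*Rps10* (chr17:27635225-27635254, minus strand): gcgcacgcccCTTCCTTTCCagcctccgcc
*Rpl38* (chr11:114668570-114668599, plus strand): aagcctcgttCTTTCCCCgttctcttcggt
*Rps27* (chr3:90213629-90213658, minus strand): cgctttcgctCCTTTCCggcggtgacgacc
*Rps6* (chr4:86857348-86857377, minus strand): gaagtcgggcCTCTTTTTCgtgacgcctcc
*Rps28* (chr17:33824543-33824572, minus strand): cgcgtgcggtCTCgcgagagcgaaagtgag
*Rpl39* (chrX:37085203-37085232, minus strand): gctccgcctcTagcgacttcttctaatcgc
*Rpl24* (chr16:55966265-55966294, plus strand): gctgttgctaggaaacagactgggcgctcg
*Rpl22l1* (chr3:28805498-28805527, plus strand): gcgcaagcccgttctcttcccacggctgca
*Rpl3l* (chr17:24727816-24727845, plus strand): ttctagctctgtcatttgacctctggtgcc

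A C at the start followed by at least 4 bases that were each C or T, read on the transcript's strand, was present in 13 of the 74 member windows (17.6%) against 2.47% of 32777 windows of other genes and 2.51% of all windows. The 13 members with it were *Rpl14*, *Rpl15*, *Rpl28*, *Rpl35*, *Rpl35a*, *Rpl38*, *Rplp2*, *Rps6*, *Rps10*, *Rps15a*, *Rps18*, *Rps21* and *Rps27*. A start annotated a few bases off would hide the run, and a window without it says only that these letters are not at this annotated start.

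The 6 first runs of columns held 528 to 3294 cells and 2283740 to 23496509 UMIs, with a median of 3634 to 8055 UMIs per cell, deepest in hypothyroid cells at 5 dpi. Mitochondrial transcripts took 2.26% to 4.32% of UMIs and were lowest in that same library. Hemoglobin transcripts, a measure of blood, ranged from 1.23 CPM in hypothyroid cells at 5 dpi to 4652 CPM in control cells at 14 dpi. Most files held more columns after the first alphabetical run of barcodes, 9062 in all, whose ribosomal protein levels resembled those of other libraries, and 1680 cells were present with the same values in more than 1 file. None of those shared cells was in first runs of 2 files, though 12 barcodes alone were, and only first runs were used. Of the 13 ratios of genes named by rule that passed 1.5-fold between the diets, all kept their direction with all columns of the files and 8 stayed past 1.5-fold. All columns may mix conditions: the third run of the hypothyroid 5 dpi file had *Rpl35* at 391 CPM, near the 398 CPM of control 5 dpi. Values with all columns, here and below, therefore cannot show whether a ratio holds. Intervals are exact at 95% and cover counting error only, not differences between mice or between library preparations.

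Ribosomal protein transcripts took nearly the same share of UMIs in both diets before injury and a larger share in hypothyroid muscle after it. In control TAM they were 11.7% of UMIs on day 0, 14.996% at 5 dpi and 13.3% at 14 dpi. In hypothyroid TAM they were 11.7%, 19.9% and 15.8%. The ratio of hypothyroid to control was 0.997 (0.992 to 1.001) on day 0, 1.33 (1.326 to 1.330) at 5 dpi and 1.19 (1.189 to 1.194) at 14 dpi. Both diets stood highest at 5 dpi, and the hypothyroid libraries ranged more widely. With all columns of the files, the ratios were 0.971, 1.26 and 1.15. The hypothyroid library of 5 dpi was also the deepest and had the lowest mitochondrial share, and the part of the mitochondrial share in the result was not tested.

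**Figure D1:**
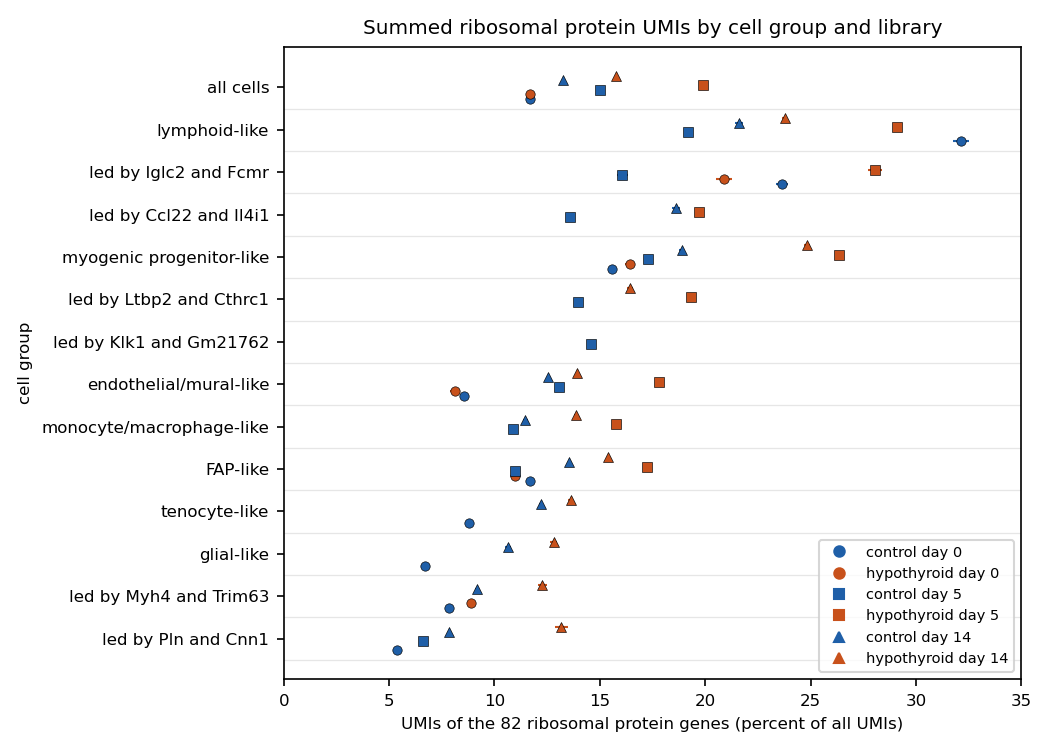
UMIs of the 82 ribosomal protein genes as a percent of all UMIs (x axis) in all cells and in each cell group with at least 20 cells (y axis), with colour for diet, marker shape for day and bars for the 95% counting interval. Over all cells both diets lie at 11.7% on day 0, and at 5 dpi the hypothyroid library lies at 19.9% against 14.996% in control.

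Over all cells, the median cell gave the same picture as the sum. The member share of the median cell was 10.8% in control and 10.1% in hypothyroid cells on day 0, 14.5% and 18.7% at 5 dpi, and 11.9% and 14.7% at 14 dpi. The upper quartile of control cells at 5 dpi, 18.3%, lay just under the hypothyroid median. By depth at 5 dpi, the members took 16.5% of UMIs in hypothyroid against 13.5% in control cells under 2000 UMIs, 20.1% against 15.9% from 2000 to 4000, 19.2% against 15.002% from 4000 to 8000, and 20.1% against 14.9% from 8000. At 14 dpi these were 9.22% against 9.28%, 16.3% against 13.1%, 16.5% against 13.7%, and 15.8% against 13.5%, so that the diets were level in the shallowest cells and the hypothyroid share was higher in the rest.

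At 5 dpi the median of all 11558 genes tested was −0.41 on the log2 scale for hypothyroid over control, while the median of the members was 0.42. On day 0 the medians were −0.02 for all genes and −0.09 for members, and at 14 dpi −0.09 and 0.25. A member was counted as higher or lower from a 1.5-fold ratio, with at least 100 UMIs over both libraries, which all but *Rpl39l* passed on day 0, all but *Rpl3l* at 5 dpi and all 82 at 14 dpi.

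The higher share was spread over both subunits. At 5 dpi the median log2 ratio of hypothyroid to control was 0.44 for large-subunit and 0.38 for small-subunit genes, at 14 dpi it was 0.25 and 0.26, and on day 0 it was −0.06 and −0.11. Members with the TOP-like start had a median log2 ratio at 5 dpi of 0.54 over 13 genes and those with a window lacking it 0.43 over 48, with ranges of −0.84 to 2.43 and −1.35 to 1.65 that overlapped over most of their length. At 14 dpi the medians were 0.24 and 0.25. *Rpl35* and *Rps10*, both shown above with a long run of C and T, were near opposite ends at 5 dpi, as described below.

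On day 0, in uninjured muscle, the members differed little between the diets. Only *Rpl3l* was at least 1.5-fold higher in hypothyroid cells, where 6.4% of all genes were, and no member was 1.5-fold lower, where 7.12% of all genes were. By counting error alone the ratio was above 1 in 31 members and below 1 in 40, and for 10 the interval held 1. With intervals set aside, 33 of 81 members and 3555 of 7505 genes had a ratio above 1. Without the 5 genes that are named as "like" another, the ratios lay between 0.716 and 1.30.

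The lowest ratios on day 0 belonged to *Rpl31*, a large-subunit protein, at 457 CPM in control and 328 in hypothyroid cells (0.716), to *Rps27l*, a paralogue of *Rps27* that is induced by p53, at 275 and 206 CPM (0.749), and to *Rplp1*, a protein of the stalk that recruits translation factors, at 3118 and 2362 CPM (0.758). After *Rpl3l*, the highest were *Rpl3*, which lies at the peptide-forming centre of the large subunit, at 1147 and 1492 CPM, and *Rps3*, which lines the mRNA entry channel of the small subunit, at 1568 and 2044 CPM. Both had a ratio of 1.30.

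At 5 dpi the members differed most from each other. In hypothyroid cells 24 members were at least 1.5-fold higher, where 8.47% of all genes were, and 5 were at least 1.5-fold lower, where 39.8% of all genes were. The interval lay above 1 in 62 members and below 1 in 16. With intervals set aside, 62 of 81 members and 3230 of 11558 genes had a ratio above 1. The SD of the log2 ratios over members was 0.59, against 0.26 on day 0 and 0.28 at 14 dpi. With ratios centred on the median of all genes, 59 members were higher and 1 was lower, and with all columns of the files 11 were higher and 2 lower. The share of all genes was not counted after centring or with all columns.

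*Rpl35*, a large-subunit protein beside the exit of the tunnel through which new proteins leave, had the highest ratio at 5 dpi. Its gene lies on chromosome 2, and it stood at 1035 CPM on day 0, 398 at 5 dpi and 945 at 14 dpi in control cells, and at 846, 2138 and 1057 CPM in hypothyroid cells. The control library at 5 dpi was the lowest of the 6 and the hypothyroid library of that day the highest, with a ratio of 5.38 (5.24 to 5.52), which was 2.39 with all columns of the files. *Rpl39*, the small protein that lines that tunnel, was at 1007, 1077 and 1905 CPM in control libraries against 948, 3370 and 2433 CPM in hypothyroid ones, a ratio of 3.13 (3.08 to 3.18) at 5 dpi and of 1.75 with all columns. Unlike *Rpl35*, it was no lower in control cells at 5 dpi than on day 0.

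*Rps28*, a small-subunit protein near the mRNA exit, was at 791, 835 and 1850 CPM in control cells over the 3 days and 925, 2324 and 2438 CPM in hypothyroid cells. Hypothyroid cells at 5 dpi were thus already near the level that both diets had at 14 dpi, and the 5 dpi ratio was 2.78 (2.73 to 2.84). *Rps29*, a zinc-binding protein of the small-subunit head, was at 871, 1002 and 2912 CPM in control libraries against 1024, 2654 and 3611 CPM in hypothyroid ones, higher at 14 than at 5 dpi in both diets. *Rpl38*, at 498, 614 and 1503 CPM in control libraries against 624, 1569 and 2046 CPM in hypothyroid ones, had a 5 dpi ratio of 2.56 (2.499 to 2.62). With all columns the 5 dpi ratio was 1.39 for *Rps28*, 1.11 for *Rps29* and 1.22 for *Rpl38*, so that none of them passed 1.5-fold. *Rps29* and *Rpl38*, like *Rpl5* and *Rps15* below, were picked for description after their values were seen.

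*Rpl10*, which joins the large subunit last and completes it, followed a different course. Control libraries held 2325, 1334 and 1223 CPM and hypothyroid libraries 2809, 3378 and 1390 CPM. The hypothyroid library of 5 dpi was the highest, and the 5 dpi ratio was 2.53 (2.49 to 2.57). *Rpl22l1*, the paralogue of *Rpl22*, was steady at 434, 503 and 470 CPM in control cells and was 417, 1274 and 496 CPM in hypothyroid cells, so that a single library stood apart, with a ratio of 2.53 (2.47 to 2.60). With all columns the ratios of *Rpl10* and *Rpl22l1* were 2.13 and 2.01. *Rpl22l1* made up 29.2% of the summed UMIs of *Rpl22* and *Rpl22l1* in control cells at 5 dpi and 45.8% in hypothyroid cells, against 32.4% to 36.5% in the other 4 libraries.

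The 5 members lower in hypothyroid cells at 5 dpi were *Rpl24*, *Rps10*, *Rpl23a*, *Rpl5* and *Rps15*. *Rpl24*, a large-subunit protein that reaches across to the small subunit, was at 186, 1163 and 1165 CPM in control libraries against 151, 456 and 1514 CPM in hypothyroid ones. Both uninjured libraries were far below the rest, and at 5 dpi the ratio was 0.392 (0.383 to 0.402). *Rps10*, a protein of the small-subunit head, was at 579, 1799 and 1144 CPM in control libraries against 488, 1006 and 1631 CPM in hypothyroid ones, so it was highest at 5 dpi in control and at 14 dpi in hypothyroid TAM, with a 5 dpi ratio of 0.559.

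*Rpl23a*, which anchors factors at the tunnel exit, was at 1258, 1791 and 903 CPM in control libraries against 1052, 1009 and 1068 CPM in hypothyroid ones. The hypothyroid level hardly differed over the days, and the 5 dpi ratio was 0.563. *Rpl5*, which carries 5S ribosomal RNA into the large subunit, was at 1947 CPM in control libraries against 1113 CPM in hypothyroid ones at 5 dpi, and *Rps15*, of the small-subunit head, at 1547 and 902 CPM. Their ratios were 0.572 and 0.583. With all columns all 5 were still lower, but the ratio was 0.556 for *Rpl24*, 0.728 for *Rps15*, 0.787 for *Rps10*, 0.883 for *Rpl23a* and 0.910 for *Rpl5*, and *Rpl24* alone of these passed 1.5-fold.

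**Figure D2:**
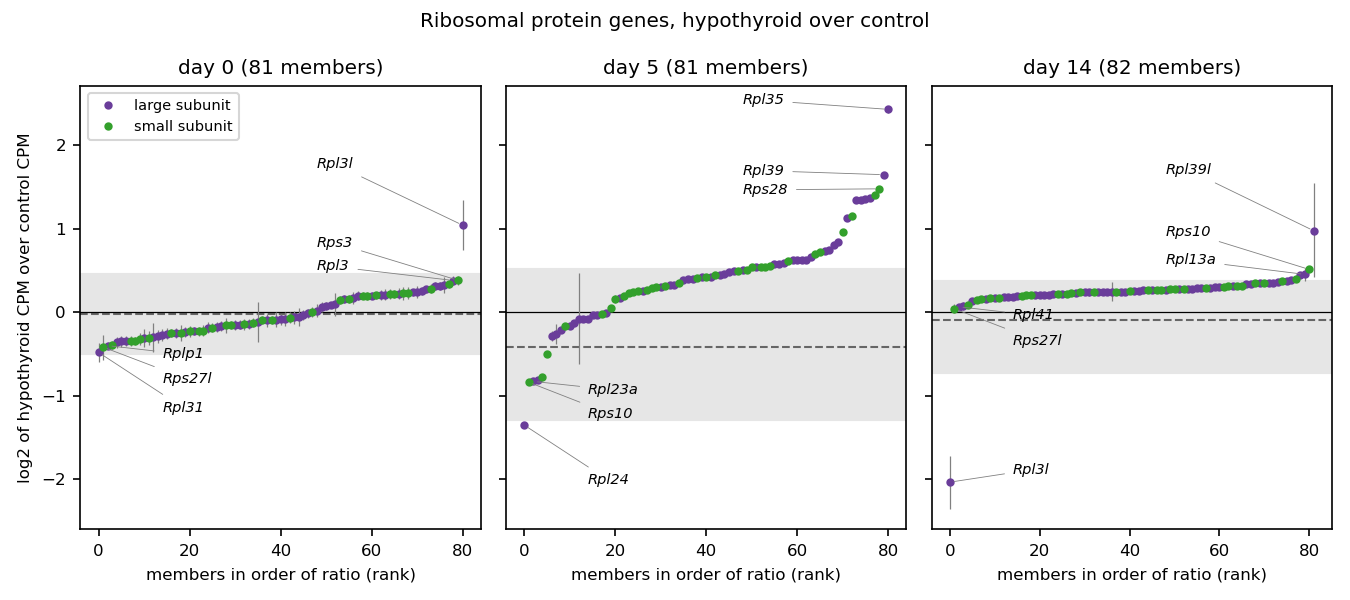
Log2 of hypothyroid over control CPM (y axis) of each ribosomal protein gene with at least 100 UMIs over both libraries, in order of ratio (x axis), on day 0, at 5 dpi and at 14 dpi, coloured by subunit with 95% counting intervals, where the dashed line is the median and the grey band the central 80% of all genes tested. The points spread widest at 5 dpi, from *Rpl24* (ratio 0.392) to *Rpl35* (5.38), and at 14 dpi nearly all lie in a narrow band above 0.

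At 14 dpi nearly every member was slightly higher in hypothyroid cells. The interval lay above 1 in 80 of 82 members. With intervals set aside, 81 members and 4493 of 11106 genes had a ratio above 1. But only *Rpl39l* was at least 1.5-fold higher, where 5.47% of all genes were. Only *Rpl3l* was at least 1.5-fold lower, where 14.6% of all genes were. Without the 5 "like" genes the 77 ratios lay between 1.05 and 1.43, with an SD of 0.08 on the log2 scale, against 0.59 at 5 dpi and 0.23 on day 0 over the same genes. The highest of these were *Rps10* at 1.43 and *Rpl13a*, a large-subunit protein that also represses inflammatory mRNAs, at 1.37 from 158 CPM in control and 217 in hypothyroid cells. Among the lowest was *Rpl41*, the smallest ribosomal protein, at 2760 and 2887 CPM, a ratio of 1.05. Among the "like" genes, *Rps27l* was at 368 and 378 CPM, a ratio of 1.03.

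In the time courses, members were far more often higher at 5 dpi than on day 0 in hypothyroid than in control TAM. In control cells 17 of 81 members were at least 1.5-fold higher, where 35.7% of all genes were, and 3 were lower, where 20.3% were. In hypothyroid cells 55 of 81 were higher, where 24.4% of all genes were, and 3 were lower, where 32.8% were. These are separate pairs of libraries, and the difference between the diets was not tested.

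At 14 dpi the summed members were lower than at 5 dpi in both diets, at 0.884 times the 5 dpi share in control and 0.793 times in hypothyroid cells. In control cells 9 members were at least 1.5-fold higher at 14 dpi, where 21.1% of all genes were, and 14 were lower, where 28.9% were. In hypothyroid cells 6 were higher, where 25.7% of all genes were, and 20 were lower, where 18% were. The 9 that were higher in control cells were *Rpl3l*, *Rpl35*, *Rpl36*, *Rpl37*, *Rpl38*, *Rpl39*, *Rps27*, *Rps28* and *Rps29*. All but *Rpl3l* were also among the members higher in hypothyroid than in control cells at 5 dpi, and both comparisons share the control library of 5 dpi.

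**Figure D3:**
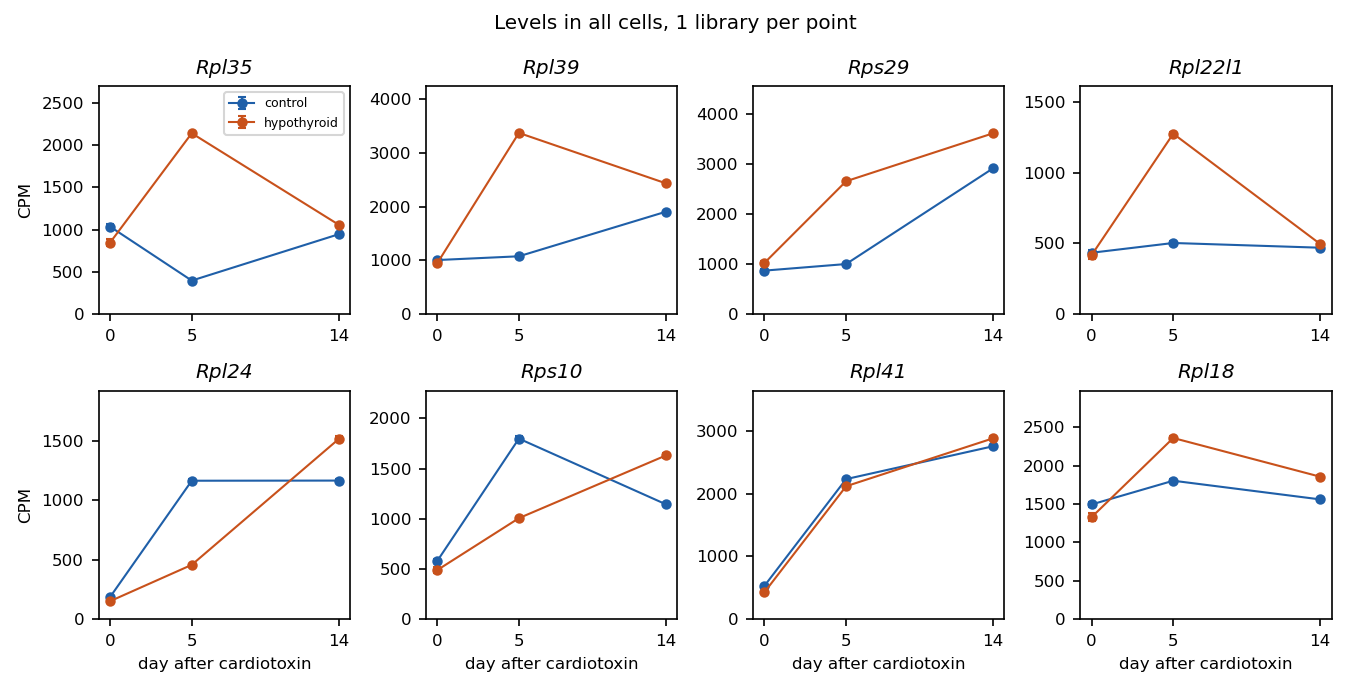
CPM (y axis) of 8 ribosomal protein genes by day after cardiotoxin (x axis), 1 library per point, with colour for diet and bars for the 95% counting interval. At 5 dpi *Rpl35* is lowest in control (398 CPM) and highest in hypothyroid cells (2138 CPM), while *Rpl24* is higher in control (1163 against 456 CPM).

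Levels of individual members spanned more than 3 orders of magnitude. These are 3′ UMI counts and were not divided by transcript length, so they compare captured molecules. The 10 highest members held 22.0% of all member UMIs, and 77 members were at 200 CPM or more in every library. *Rpl13*, of the large subunit, was highest on day 0 at 3691 CPM in control libraries against 3908 CPM in hypothyroid ones. *Rplp1* was highest in control cells at 5 dpi (5246 CPM) and in both diets at 14 dpi (3870 and 4374 CPM), and *Rps2*, of the small subunit, was highest in hypothyroid cells at 5 dpi (5448 CPM).

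The stalk genes did not move as 1 unit. *Rplp0*, the base of the stalk, was at 2591, 2551 and 2214 CPM in control libraries against 3059, 3847 and 2427 CPM in hypothyroid ones, higher with hypothyroidism on each day. *Rplp1* was at 3118, 5246 and 3870 CPM in control libraries against 2362, 4963 and 4374 CPM in hypothyroid ones, and *Rplp2* at 1488, 2391 and 1859 CPM in control libraries against 1168, 2370 and 2155 CPM in hypothyroid ones. Both were lower in hypothyroid cells on day 0, nearly level at 5 dpi and higher at 14 dpi.

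*Rpsa*, which doubles as a laminin receptor, was at 1963, 2941 and 1776 CPM in control libraries against 2252, 3438 and 1991 CPM in hypothyroid ones. *Rps6*, the substrate of S6 kinase in the mTOR pathway, was at 1301, 1389 and 1074 CPM in control libraries against 1583, 1692 and 1367 CPM in hypothyroid ones. Each was higher in the hypothyroid library on all 3 days.

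As a share of the summed members, the steadiest genes over the 6 libraries included *Rpl18* and *Rpl30*, with an SD on the log2 scale of 0.055 and 0.059. *Rpl18*, for example, was at 1494, 1804 and 1560 CPM in control libraries against 1329, 2361 and 1856 CPM in hypothyroid ones. The most varied were *Rpl3l* (SD 2.85), *Rpl24* (1.33) and *Rpl39l* (1.11). Transcript length had next to no rank correlation with the diet ratio, with a Spearman's rho of 0.06 on day 0, 0.11 at 5 dpi and 0.07 at 14 dpi over 81, 81 and 82 members, which share their libraries.

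Several members have near copies whose reads could be split between them, so their values are uncertain. *Rps27rt*, a processed copy of *Rps27*, was at 2.02, 67.8 and 101 CPM in control and 1.31, 7.79 and 123 CPM in hypothyroid cells, and took 6.71% of the pair's UMIs in control cells at 5 dpi but 0.372% in hypothyroid cells. Summed with its copy, *Rps27* had a 5 dpi ratio of 2.07, against 2.21 alone and 1.12 alone with all columns. For *Rpl10* with *Rpl10-ps3* the ratio was 2.39 against 2.53 alone, with the copy at 6.67% and 1.33% of the pair, and for *Rpl9* with *Rpl9-ps6* it was 1.52 against 1.54.

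Cells were clustered without the members to see whether these differences followed the cell types present. The 15 clusters held fibro-adipogenic progenitors (FAP-like), endothelial/mural-like, monocyte/macrophage-like, lymphoid-like, myogenic progenitor-like, tenocyte-like and glial-like cells, and 6 clusters that markers did not name and that are called here by leading genes. A sum over all cells cannot tell a different mix of cells from a different level per cell. At 5 dpi the members' share was higher in hypothyroid cells in 8 of 8 groups with at least 20 cells in both libraries, by 1.36 to 1.75 times, and at 14 dpi in 9 of 9 groups, by 1.10 to 1.68 times. The 1.68 belonged to the cluster led by *Pln* and *Cnn1*, from 158 control and 29 hypothyroid cells. Its median cell went the other way, at 5.74% in control and 4.07% in hypothyroid cells. In the other groups of 14 dpi the median cell was also higher in hypothyroid cells. Of the groups named by markers, the summed share was higher in hypothyroid cells at 5 dpi in 5 of 5, but in 4 of 7 with all columns of the files. On day 0 the summed share was higher in 2 groups and lower in 3, by ratios of 0.883 to 1.14.

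Lymphoid-like cells had the highest or next to highest share in the libraries that held enough of them, and more than FAP-like cells in 5 of 5. In control TAM they gave 32.1% on day 0 from 23 cells, 19.2% at 5 dpi and 21.6% at 14 dpi, and in hypothyroid TAM 29.1% at 5 dpi and 23.8% at 14 dpi. FAP-like cells gave 11.7%, 10.98% and 13.6% in control and 10.97%, 17.2% and 15.4% in hypothyroid TAM. The FAP-like share in control was thus no higher at 5 dpi than on day 0, from 88 and 775 cells, while over all cells it was. The cluster led by *Ltbp2* and *Cthrc1*, which markers did not name, held 337 control cells at 5 dpi and gave 14.0% there. Whether its cells are FAPs in another state was not tested, so the FAP-like values may not cover all FAPs at 5 dpi. The lymphoid-like and FAP-like groups each join 2 clusters. At 5 dpi the diets differed in the same direction in both clusters of each group, though not by the same amount. In the FAP-like cluster led by *Ackr2* the share was 11.03% in control and 18.5% in hypothyroid cells, and in that led by *Lvrn* 10.9% and 15.2%. In the lymphoid-like cluster led by *Gzma* it was 19.9% and 29.04%, and in that led by *Cd3e* 17.5% and 29.2%. Of the 23 lymphoid-like cells of control day 0, 16 were in the *Cd3e* cluster.

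Myogenic progenitor-like cells, the *Pax7* and *Myod1* expressing cells that rebuild fibers, gave 15.6%, 17.3% and 18.9% in control and 16.4%, 26.3% and 24.8% in hypothyroid TAM. The ratio was 1.05 (1.03 to 1.07) on day 0, 1.52 (1.52 to 1.53) at 5 dpi and 1.31 (1.30 to 1.33) at 14 dpi, from 38 and 26, 108 and 188, and 99 and 59 cells. They were the highest of all groups in hypothyroid TAM at 14 dpi. Monocyte/macrophage-like cells were lower, at 10.9% and 15.7% at 5 dpi and 11.5% and 13.9% at 14 dpi.

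In the order of groups within a library, most neighbours were apart by their counting intervals. Exceptions were tenocyte-like and endothelial/mural-like cells in control TAM on day 0, FAP-like and monocyte/macrophage-like cells in control at 5 dpi, myogenic progenitor-like cells and the cluster led by *Ccl22* and *Il4i1* in control at 14 dpi, and 2 pairs in hypothyroid TAM at 14 dpi. The lowest share of all, 5.39%, was in the cluster led by *Pln* and *Cnn1* in control TAM on day 0, from 20 cells.

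In control TAM the time course over all cells was not that of the cell groups. Over all cells the control share at 5 dpi was 1.28 times that of day 0. Within cell groups it was higher in 3 and lower in 3, by ratios of 0.597 to 1.52. With the groups at equal weight, as a ratio of mean shares, the ratio was 0.857. The lowest ratios, 0.597 in lymphoid-like cells and 0.679 in the cluster led by *Iglc2* and *Fcmr*, rest on 23 and 35 cells of day 0. Their day 0 shares, 32.1% and 23.6%, were the highest, so they weigh most in the 0.857. From 5 to 14 dpi the ratio of the control share was 0.884 over all cells. It was above 1 in 6 groups and below 1 in 1 group, and 1.14 at equal weight. In hypothyroid TAM the direction held in each group: higher at 5 dpi than on day 0 in 4 of 4, by 1.34 to 2.19 times, and lower at 14 than at 5 dpi in 6 of 6, by ratios of 0.782 to 0.942.

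At 5 dpi more members were 1.5-fold higher within each of the 8 cell groups than over all cells. Among myogenic progenitor-like cells 48 of 80 members were higher in hypothyroid cells, where 8.4% of genes were, and 4 were lower, where 26.8% were. Among FAP-like cells these were 49 and 2 of 79 (12.4% and 19.2% of genes), and among endothelial/mural-like cells 25 and 5 of 79 (8.3% and 19.6%). In immune cells, 36 members were higher and 5 lower of 80 in monocyte/macrophage-like cells (9.41% and 19.8% of genes), and 43 and 5 of 80 in lymphoid-like cells (7.78% and 28.1%). Among the unnamed clusters, the one led by *Ltbp2* and *Cthrc1*, which encode secreted matrix proteins, had 29 higher and 5 lower of 81 (6.28% and 28.8% of genes), that led by *Ccl22* and *Il4i1* 41 and 5 of 80 (7.68% and 37.5%), and that led by *Iglc2* and *Fcmr* 54 and 3 of 77 (32.2% and 23.4%).

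The pattern of members at 5 dpi was much the same in every cell group. Over the 77 members measured in all 8 groups, Spearman's rho of the diet ratios between groups was 0.843 to 0.976 over 28 pairs (median 0.927), for groups that come from the same 2 libraries. In every group 21 members were at least 1.5-fold higher in hypothyroid cells and 2, *Rpl24* and *Rps15*, at least 1.5-fold lower. How many of all genes passed in every group was not counted, so these counts cannot show a trait of the members. Over the groups the ratio of *Rpl35* was 4.70 to 6.11, that of *Rpl39* 3.07 to 4.73, that of *Rps28* 2.73 to 3.87 and that of *Rpl22l1* 1.78 to 3.03. On the low side, *Rpl24* was 0.356 to 0.561, *Rpl23a* 0.552 to 0.707 and *Rps10* 0.585 to 0.740.

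In myogenic progenitor-like cells at 5 dpi, *Rpl35* was at 460 CPM in control libraries against 2811 CPM in hypothyroid ones and *Rpl24* at 1455 and 613 CPM. In endothelial/mural-like cells, which had the smallest ratio for *Rpl35*, it was at 347 and 1632 CPM, and *Rpl24* was at 1147 and 409 CPM. Over the whole libraries *Rpl35* was at 398 and 2138 CPM and *Rpl24* at 1163 and 456 CPM, so that both genes were above the library's level in myogenic progenitor-like cells of either diet.

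**Figure D4:**
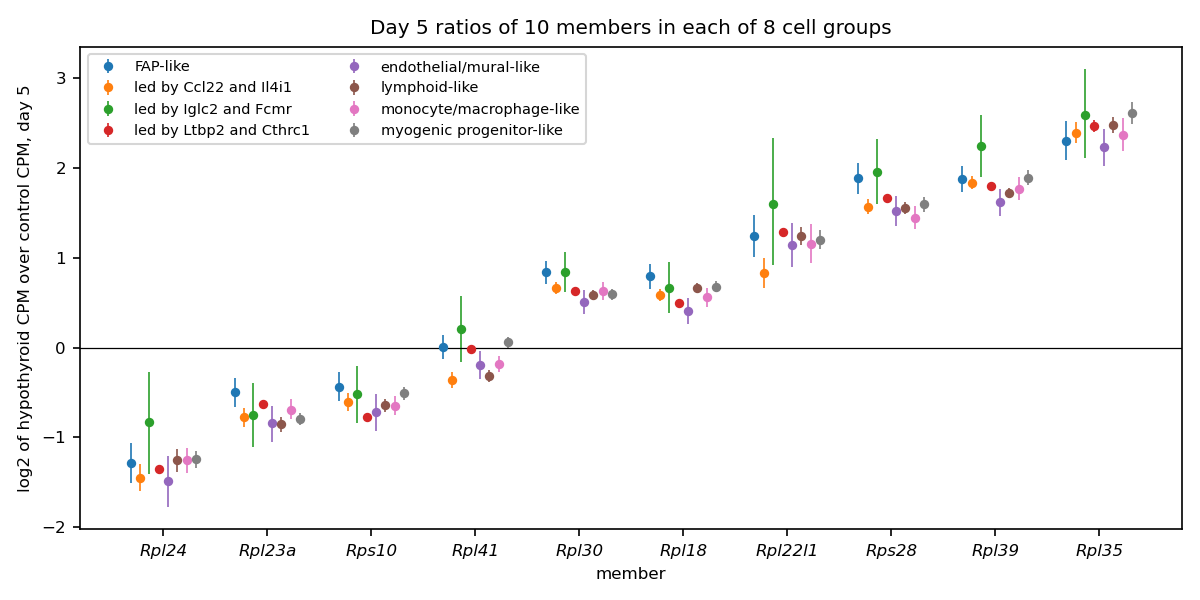
Log2 of hypothyroid over control CPM at 5 dpi (y axis) of 10 ribosomal protein genes (x axis), with 1 point for each of 8 cell groups and bars for the 95% counting interval. For each gene the groups lie close together, from *Rpl24* (ratios 0.356 to 0.561) to *Rpl35* (4.70 to 6.11).

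The relative makeup of the members differed more between libraries than between cell types of a library. Taking each member's share of the summed members, the median absolute log2 difference between 2 cell groups of the same library was 0.185 (0.0816 to 0.359 over 209 pairs), and between 2 libraries within the same cell group 0.276 (0.0473 to 0.517 over 91 pairs). The 2 libraries of 14 dpi were the nearest, at 0.106 over 9 groups and 0.0492 over all cells. Those of 5 dpi were 0.219 apart and those of day 0 0.217 apart over all cells. Each diet and day is a single library, so differences between diets and between libraries cannot be told apart.

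Some members nonetheless marked a cell group. Set against FAP-like cells of the same library, as a share of the summed members, *Rps29* was higher in monocyte/macrophage-like cells in 4 of 4 libraries (median 1.81 times), and *Rps27l* was lower in lymphoid-like cells in 5 of 5 (median 0.316). *Rps27l* was also low in the cluster led by *Iglc2* and *Fcmr*, which carries B cell genes (median 0.236). *Rpl22l1* was higher in the cluster led by *Pln* and *Cnn1*, smooth muscle genes, in 4 of 4 libraries (median 2.79 times), where it made up 44.2% to 62.5% of the summed UMIs of *Rpl22* and *Rpl22l1*.

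*Rpl3l*, on chromosome 17, is the striated muscle form of *Rpl3* and was the only member whose diet ratio turned over between days by more than 1.5-fold each way. It stood at 35.7 CPM on day 0, 3.30 at 5 dpi and 31.8 at 14 dpi in control TAM and at 73.6, 0.638 and 7.78 CPM in hypothyroid TAM. Both diets were lowest at 5 dpi, with 51 and 15 UMIs, too few for the minimum of 100. The hypothyroid to control ratio was 2.06 (1.67 to 2.53) on day 0 and 0.244 (0.196 to 0.303) at 14 dpi.

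Its level was highest in the cluster led by *Myh4* and *Trim63*, in which all 9 myocyte markers were raised and hemoglobin genes led the list. There it was at 715 CPM in control libraries against 617 CPM in hypothyroid ones on day 0, detected in 68.8% and 60.8% of cells, and at 239 and 291 CPM at 14 dpi, detected in 39.6% and 33.3%. Within the cluster the hypothyroid to control ratio was 0.863 (0.654 to 1.13) on day 0 and 1.21 (0.769 to 1.86) at 14 dpi, so that both intervals held 1. The cluster held 48 of 1152 control and 74 of 528 hypothyroid cells on day 0, and 149 of 3294 and 21 of 1650 at 14 dpi. Hemoglobin transcripts over all cells moved the same way as *Rpl3l*, at 245 and 3093 CPM on day 0 and 4652 and 259 CPM at 14 dpi, and the part of either in the *Rpl3l* result was not tested.

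In that cluster *Rpl3* was at 67.0 and 143 CPM on day 0 and 296 and 353 CPM at 14 dpi, against 1147 and 1492 CPM over all cells of day 0. *Rpl3l* made up 91.4% and 81.2% of the summed UMIs of *Rpl3* and *Rpl3l* in control and hypothyroid cells on day 0, and 44.7% and 45.2% at 14 dpi. In both diets the *Rpl3l* share was thus lower at 14 dpi than in uninjured muscle. FAP-like cells, which should lack the gene, had an *Rpl3l* UMI in 6.06% and 14.4% of cells on day 0 and 12.1% and 4.19% at 14 dpi. They held 62 control and 54 hypothyroid *Rpl3l* UMIs on day 0 and 237 and 45 at 14 dpi. The cluster held 128 and 95 on day 0 and 102 and 28 at 14 dpi. Within FAP-like cells the hypothyroid to control ratio was 2.48 on day 0 and 0.225 at 14 dpi. FAP-like cells were deeper, with medians of 4370 to 9322 UMIs on these days against 1153 to 1910 in the cluster.

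**Figure D5:**
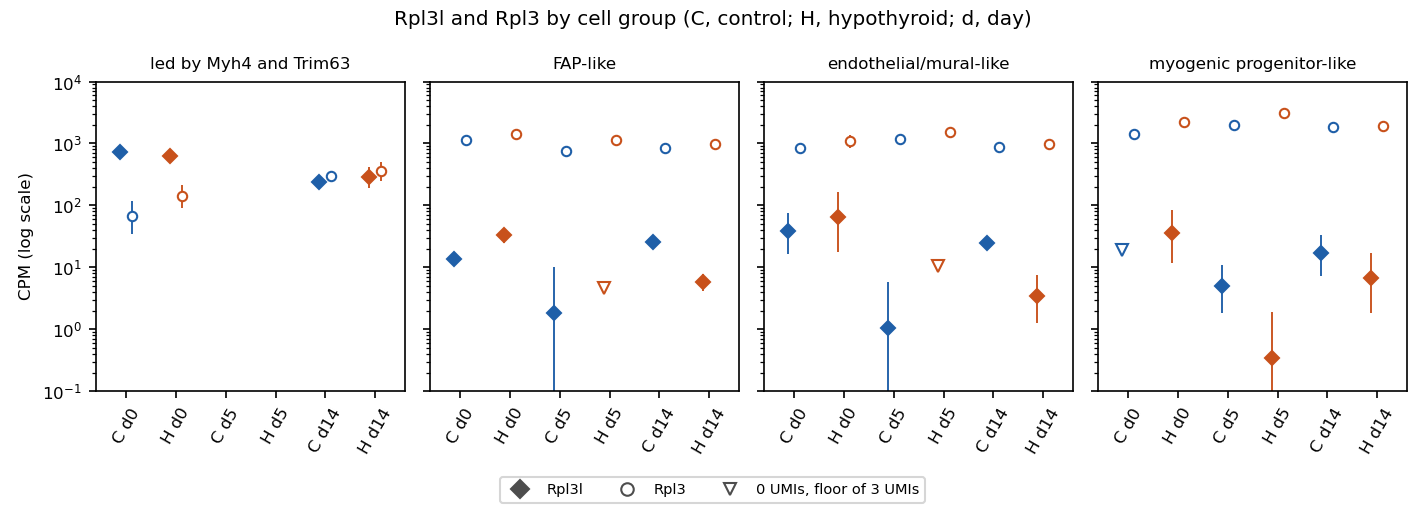
CPM on a log axis of *Rpl3l* (filled) and *Rpl3* (open) by diet and day in 4 cell groups, with bars for the 95% counting interval and triangles for the floor of 3 UMIs where none was counted, leaving out groups under 20 cells. In the cluster led by *Myh4* and *Trim63*, *Rpl3l* exceeds *Rpl3* on day 0 (715 against 67.0 CPM in control) but not at 14 dpi (239 against 296 CPM).

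*Rpl39l* and *Rpl7l1* were the other members with low levels. *Rpl39l*, best known from the testis, was the lowest member in 5 of 6 libraries, at 1.35, 3.24 and 2.79 CPM in control and 0.438, 3.06 and 5.49 CPM in hypothyroid TAM. Its ratio of 1.96 (1.34 to 2.91) at 14 dpi rests on 46 and 72 UMIs. *Rpl7l1* was at 93.1, 62.5 and 76.6 CPM in control and 85.8, 52.1 and 90.9 CPM in hypothyroid TAM, lowest at 5 dpi in both diets. Its partner *Rpl7* held 1710, 2190 and 1330 CPM with the control diet and 2129, 2145 and 1503 CPM with the hypothyroid diet, and *Rps4x*, the X-linked small-subunit gene, 2325, 2585 and 1747 CPM and 2932, 3750 and 2044 CPM. *Rpl7* was level between the diets at 5 dpi (0.980), whereas *Rps4x* was higher in hypothyroid cells on each day.

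Genes that make, regulate or work with the ribosome were read from lists. *Fau* encodes a ribosomal protein fused to a ubiquitin-like protein and *Rack1* a small-subunit protein, both outside the symbol rule. At 5 dpi *Fau* had a ratio of 1.35 and *Rack1* of 0.855.

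Their counts are read against all genes tested, of which 6.4% were at least 1.5-fold higher in hypothyroid cells and 7.12% lower on day 0 (median log2 ratio −0.02), 8.47% and 39.8% at 5 dpi (−0.41), and 5.47% and 14.6% at 14 dpi (−0.09). Of 25 translation initiation and elongation factors, 3 were higher and 5 lower at 5 dpi, with a median of −0.04, and at 14 dpi none passed in either direction and the median was 0.20. *Eef1a1*, the main elongation factor, had ratios of 1.01, 0.728 and 1.12 on the 3 days. Ribosome biogenesis genes, which make and assemble the particle in the nucleolus, counted 0 higher and 3 lower of 26 on day 0 (median −0.29), 1 and 3 at 5 dpi (0.06), and none at 14 dpi (0.33).

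Of 17 genes of mTOR and Myc control, 2 were higher and 7 lower at 5 dpi, with a median of −0.47, which is close to the share and the median of all genes. *Rptor*, the mTORC1 scaffold, had a ratio of 0.357 and *Rictor*, its mTORC2 counterpart, of 0.450, while *Rheb*, the activator of mTORC1, had 1.77 and *Myc* 1.57. Mitochondrial ribosomal protein genes, the counterpart of the members in that organelle, had 10 higher and 6 lower of 78 at 5 dpi, with a median of 0.12 against −0.41 in all genes, and 0 higher and 5 lower at 14 dpi, with a median of −0.10 against −0.09.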

How the data were processed

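The authors aligned droplet single-cell libraries with Cell Ranger to mm39 and processed them in Partek Flow, per the labels and methods. They deposited, for each library, log2(CPM + 1) values per gene and cell. Cells summed to 999975 to 1000028 CPM, and UMIs were recovered from the value of 1 UMI in each cell, with 99.934% of values whole within 0.05. The study's limits, 100 to 8000 UMIs and 500 genes, do not describe the files: of 11207 cells in first runs, 3360 exceeded 8000 UMIs and 601 had under 500 genes, and 7248 met both. Later runs, 9062 columns, were used only as an alternative.

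UMIs were summed per library and cell group. With 1 library per group no test was run. Ratios carry exact binomial intervals of 2 Poisson counts. A difference was counted from 1.5-fold and 100 UMIs. Cells were clustered (Leiden, resolution 0.3, 20 components, 15 neighbours, 2000 variable genes, members left out) with Python 3.11.15, scikit-learn 1.9.0 and leidenalg 0.10.2. A cluster was named from at least 3 raised markers, and groups needed 20 cells. Doublets were not called. Tested on simulated data for the 5 dpi comparison with 11608 genes, 100.0% of 200 changed genes and 0.27% of the others passed the fold. In it 95.4% of intervals held the true ratio. The changes put in were all well past 1.5-fold and the simulated counts varied by counting error only. It therefore cannot show how often differences between mice or library preparations pass the fold.

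Named genes were the 3 highest and 3 lowest diet ratios on each day, paralogue pairs, stalk genes with *Rpsa* and *Rps6*, the 3 highest, lowest, most and least varied members. Members and lists were chosen with earlier results of these data known. Some named results are not reported here.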

Additional observations from a re-analysis of the deposited data

Results flagged for a closer look

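*Rpl3l* was singled out because its diet ratio lay on opposite sides of 1 before and after injury, by more than 1.5-fold each way: hypothyroid over control was 2.06 on day 0 and 0.244 at 14 dpi. The cluster led by *Myh4* and *Trim63*, where its level was highest, was 74 of 528 hypothyroid and 48 of 1152 control cells on day 0. At 14 dpi it was 21 of 1650 and 149 of 3294 cells. Within this cluster the ratio was 0.863 on day 0 and 1.21 at 14 dpi, and within FAP-like cells 2.48 and 0.225. The part of cell numbers was not tested.

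*Rpl35* took opposite courses in the diets. Its level at 5 dpi over day 0 was 0.384 in control and 2.53 in hypothyroid TAM, and at 14 dpi over 5 dpi it was 2.38 and 0.495. *Rps10* did likewise from 5 to 14 dpi, with 0.636 in control and 1.62 in hypothyroid TAM. With 1 library per group, none of these differences between diets or days was tested.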

How the results depend on the processing

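No paired analysis was possible because each group is 1 library and the shared replicate number pairs nothing. Equal weighting of cell groups was chosen after seeing the data. It reversed the control time course, with 5 dpi over day 0 at 0.857 instead of 1.28 and 14 dpi over 5 dpi at 1.14 instead of 0.884. The 2 groups of highest share behind the 0.857 had only 23 and 35 cells in control TAM on day 0. The other summed ratios moved by more than counting error but kept their direction, apart from the diet ratio of day 0, which was near 1 throughout. The values below follow 1 order: the diet ratio on day 0, at 5 dpi and at 14 dpi, then 5 dpi over day 0 in control and hypothyroid TAM, then 14 dpi over 5 dpi in both. The reported values were 0.997, 1.33, 1.19, 1.28, 1.71, 0.884 and 0.793. With all columns they were 0.971, 1.26, 1.15, 1.01, 1.31, 0.960 and 0.878. As a mean over cells they were 0.990, 1.29, 1.22, 1.32, 1.72, 0.828 and 0.783. In cells of 2000 to 8000 UMIs they were 1.002, 1.27, 1.21, 1.26, 1.60, 0.886 and 0.847. Against the UMIs of other genes they were 1.38, 1.22, 1.34, 1.85, 0.857 and 0.760 from 5 dpi on, and day 0 stayed within counting error. With equal weights the remaining 5 were 0.970, 1.51, 1.22, 1.59 and 0.862.

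Counts of members depended on the fold and the columns. The share of all genes was not counted at the other settings. On day 0, 1 higher and 0 lower became 2 and 9 with all columns and 5 and 10 when a ratio of 5 to 4 was enough, and 1 was lower with no minimum of UMIs. At 5 dpi, 24 higher and 5 lower became 11 and 2 with all columns and 10 and 1 at 2-fold, 48 were higher at a ratio of 5 to 4, and 59 were higher and 1 lower after centring on the median gene. At 14 dpi, 1 higher became 16 at a ratio of 5 to 4, 0 at 2-fold, and 2 as a mean over cells, in cells of 2000 to 8000 UMIs or after centring. Of the marker-named cell classes on day 0, 1 of 3 was higher in hypothyroid cells, against 0 with all columns and 2 as a mean over cells, at a clustering resolution of 0.6 or with 30 components. At 5 dpi 5 of 5 such classes were higher, against 4 of 7 with all columns. The causes were not tested. With 1 library per group, the spread between mice is unknown, and it cannot be judged against these values.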

Other observations

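The files of 5 of the 6 libraries held columns after the first run of barcodes, whose condition the labels do not give. Their ribosomal protein levels, listed as values only, lay near those of first runs of other libraries. In first runs, *Rpl24* was at 1514 CPM in hypothyroid 14 dpi and 151 CPM in hypothyroid day 0. *Rpl35* was at 945 CPM in the first run of control 14 dpi. Which sample the later runs belong to was not tested. In the control day 0 file, the second run of 1152 cells had 15.7% of UMIs from the members and *Rpl24* at 1513 CPM, against 11.7% and 186 CPM in the first run. In the control 14 dpi file, the second run of 1152 cells had 11.6% and *Rpl24* at 177 CPM. In the control 5 dpi file, the second run had 13.4% and *Rpl35* at 970 CPM, against 398 CPM in the first run. In the hypothyroid day 0 file, the second run of 528 cells had 15.1% and *Rpl35* at 398 CPM, against 846 CPM in the first run. In the hypothyroid 5 dpi file, the second run of 528 cells had 11.8% and *Rpl24* at 155 CPM, and the third run of 1626 cells had 15.1% and *Rpl35* at 391 CPM, against 2138 CPM in the first run.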
